A study of Mus musculus with 6 samples.

Results

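The endoplasmic reticulum (ER) unfolded protein response was examined through 10 genes, Hspa5, Hsp90b1, Calr, Pdia4, Dnajb9, Sdf2l1, Creld2, Herpud1, Edem1 and Xbp1, chosen by gene symbol from the 23282 rows of the count files. All 10 were found on 1 row each, and all 10 were among the 12995 genes that passed the filter on low counts. Brown adipose tissue (BAT), the heat-producing fat depot, was taken from male C57BL/6N mice at 5 weeks of age. The control group was 3 wild-type (WT) mice. The other group was 3 mice homozygous for a Letmd1 knockout-first allele (Letmd1 KO), in which a lacZ and neomycin cassette between exons of Letmd1 disrupts the gene in every cell of the animal and not in brown adipocytes alone. LETMD1 is a protein of the mitochondrial matrix, and the comparison asked how the BAT transcriptome differs without it.

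Secreted and membrane proteins are folded in the ER, and when unfolded proteins build up there, membrane sensors of the ER raise the transcription of chaperones, folding enzymes and degradation factors. The sensor ATF6 is cut in the Golgi and then acts as a transcription factor, the sensor IRE1 (gene Ern1) splices the Xbp1 mRNA into the form that encodes the active factor, and the sensor PERK (gene Eif2ak3) phosphorylates eIF2alpha and thereby favours translation of ATF4. The PERK branch shares ATF4 and its targets with the integrated stress response, which other kinases can start without any stress in the ER. In brown fat the IRE1 and XBP1 branch is known to be engaged during thermogenic activation. The libraries were QuantSeq libraries, which read the 3′ end of an mRNA, so the counts of Xbp1 hold its spliced and unspliced forms together.

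ATF6 and XBP1 act through the ER stress response element (ERSE), which reads CCAAT, then 9 bases of any kind, then CCACG, and through a second form (ERSE-II), which reads ATTGG, then 1 base of any kind, then CCACG. Promoter windows of RefSeq on GRCm38.p6, from 250 bases before to 50 bases after the start site, were matched by symbol for 10 of the 10 genes and were searched on both strands. The exact ERSE was found in 0.119% of all 32851 promoter windows and in those of Hspa5, Hsp90b1, Calr and Creld2, and ERSE-II was found in 0.0365% of all windows and in that of Herpud1. The sites are shown as the known binding elements of these factors. Of the 5 genes with such a site 4 were higher in Letmd1 KO BAT, and so were 4 of the 5 genes without one. Each is printed 5′ to 3′ on the strand that carries the motif, with 5 bases on either side and the fixed letters of the motif in capitals. 
Hspa5, chr2:34772020-34772048, same strand as the gene: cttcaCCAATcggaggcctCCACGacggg
Hsp90b1, chr10:86705633-86705661, same strand as the gene: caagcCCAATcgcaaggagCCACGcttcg
Hsp90b1, chr10:86705528-86705556, opposite strand: actcaCCAATcgtgcctcaCCACGcactc
Calr, chr8:84847070-84847098, opposite strand: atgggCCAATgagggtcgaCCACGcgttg
Creld2, chr15:88819515-88819543, opposite strand: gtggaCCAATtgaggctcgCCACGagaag
Herpud1, ERSE-II, chr8:94386372-94386392, same strand as the gene: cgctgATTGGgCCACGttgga
The core of the unfolded protein response element, TGACGTGG (0.676% of all windows), and that of the composite element of ATF4, TGATGNAAT (0.965%), had no exact match in the 10 windows. A match or its absence describes these letters in this window and says nothing of binding.

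The libraries held between 6669577 and 14574273 counts, and the limit that a count of 0 allows (3 counts, counting error only) lay between 0.176 and 0.397 CPM, where CPM stands for counts scaled to library size with TMM factors. Letmd1 had 5658, 6490 and 5266 counts in WT BAT against 0, 0 and 1 in Letmd1 KO BAT, so all 6 genotype labels matched. Genotypes were compared with the quasi-likelihood test of edgeR, and p-values were adjusted after Benjamini and Hochberg over the whole table, with a threshold of 0.05. Of all genes tested 46.0% passed it, 23.7% were higher and 22.3% were lower in Letmd1 KO BAT, and 57.3% did not overlap between the genotypes. The TMM factors were between 0.852 and 0.886 in WT and between 1.13 and 1.17 in Letmd1 KO mice, so that with library size alone the median over all genes moved from 0.033 to 0.45 on the log2 scale. Of 11 brown adipocyte markers, 9 were lower and none was higher in Letmd1 KO BAT, although Ucp1 was still at 255 CPM or above in each KO mouse. The most abundant of these markers, Fabp4, had a log2 fold change of -1.42 (edgeR adjusted p = 0.000592). Macrophage markers (13 of 13) and fibroblast markers (9 of 9) were higher, and bulk counts cannot tell a changed number of cells of a type from a changed amount of RNA per cell.

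Transcripts of the unfolded protein response were raised in Letmd1 KO BAT for 8 of the 10 genes, against 23.7% of all genes tested that were higher, and none was lower. The 10 genes were chosen with earlier results of these data known, so this share is a description and no test. The median log2 fold change of the 10 genes was 0.86, against 0.033 for all genes tested. The folds of the 8 genes ran from 1.49 for Calr to 7.65 for Sdf2l1, and for the same 8 genes every Letmd1 KO mouse lay above every WT mouse, as it did or lay below for 57.3% of all genes tested. Dnajb9 and Herpud1 did not pass the threshold. With a fold of at least 1.5 asked for as well, 7 genes were higher, against 19.9% of all genes tested, since Calr was just under this fold. The sum over the 10 genes was 1700 ± 122 CPM (SD, n = 3) in WT and 3187 ± 290.1 CPM (SD, n = 3) in Letmd1 KO BAT, and Hspa5 alone made up 44.9% ± 2.94 of it in WT and 52.0% ± 4.09 in Letmd1 KO BAT (SD, n = 3 each). Without the most abundant gene, Hspa5, the sum still went from 934 ± 38.1 to 1525 ± 102 CPM (SD, n = 3 each).

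**Figure D1:**
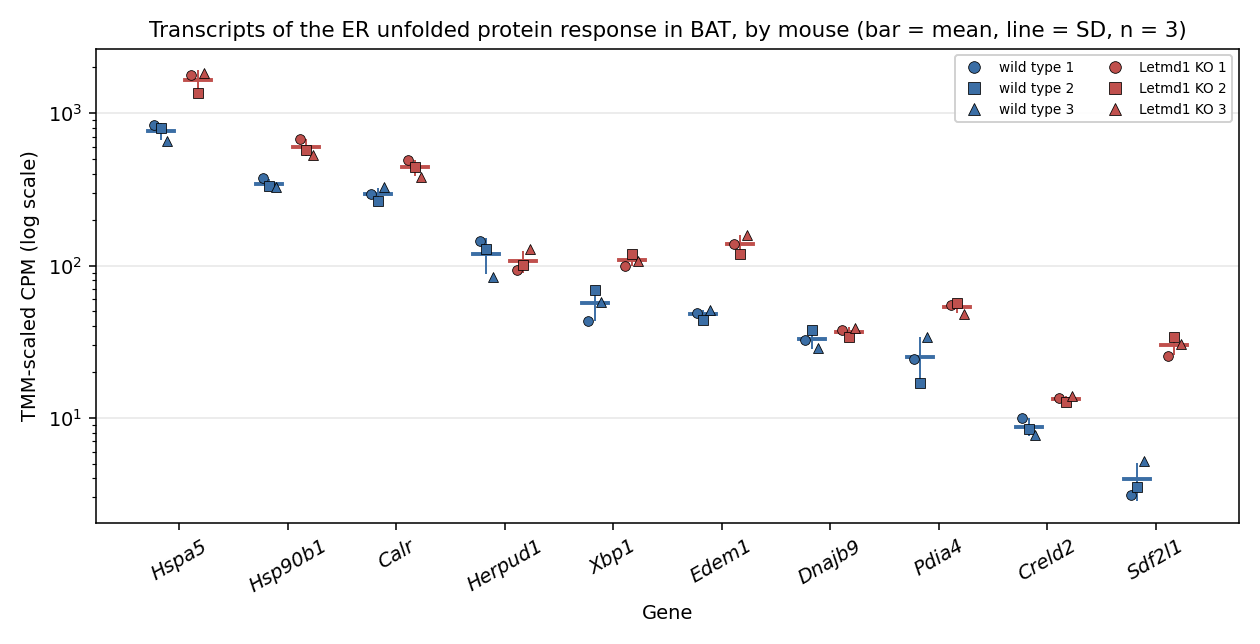
Level of the 10 genes in each mouse as TMM-scaled CPM on a log axis, with the mean as a bar and the SD as a line (n = 3 mice per genotype; blue, WT; red, Letmd1 KO; the marker shape gives the replicate number). For 8 genes the 3 red points lie above the 3 blue points, while those of Herpud1 and Dnajb9 overlap.

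Among the lumenal chaperones, Hspa5 (BiP), the ER member of the HSP70 family that binds unfolded chains and holds the sensors inactive, had 839.8, 802 and 654 CPM in WT BAT against 1789, 1368 and 1828 CPM in Letmd1 KO BAT. The lowest KO mouse was 1.63 times the highest WT mouse. Hspa5 (chr2:34771970-34777547, plus strand, GENCODE vM21 on GRCm38) had a log2 fold change of 1.12 (95% interval 0.76 to 1.48, edgeR adjusted p = 0.000465). Hsp90b1 (GRP94), the ER member of the HSP90 family, maps to chr10:86690209-86705509 (minus strand). It had 376, 332 and 327 CPM in WT BAT against 681, 575 and 534 CPM in Letmd1 KO BAT, and the KO mice were all above the WT mice. Its log2 fold change was 0.79 (95% interval 0.50 to 1.08, edgeR adjusted p = 0.000951). The gene 1810014B01Rik runs against Hsp90b1 and overlaps its 3′ end, and whether reads were counted by strand is not given in the sources used here. It had between 147 and 212 counts in WT BAT against between 58 and 147 in Letmd1 KO BAT, and it was lower in Letmd1 KO BAT, opposite to Hsp90b1. Calr (calreticulin), a calcium-binding lectin chaperone for glycoproteins, maps to chr8:84841850-84846934 (minus strand). It had 294, 265 and 325 CPM in WT BAT against 494, 446 and 382 CPM in Letmd1 KO BAT. The lowest KO mouse was only 1.18 times the highest WT mouse, and the log2 fold change was 0.58 (95% interval 0.28 to 0.88, edgeR adjusted p = 0.00604). Among counts from 3′ ends, which do not scale with the length of a gene, these chaperones were the most abundant of the 10 genes in both genotypes.

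Pdia4 (ERp72), a protein disulfide isomerase (chr6:47796141-47813430, minus strand), had 24.3, 17.0 and 34.2 CPM in WT BAT against 54.8, 56.8 and 48.3 CPM in Letmd1 KO BAT. The WT mice spread more than for any other of the 10 genes, with an SD of 34.4% of their mean, and still did not overlap the KO mice. The log2 fold change of Pdia4 was 1.09 (95% interval 0.58 to 1.59, edgeR adjusted p = 0.0036). Creld2, a secreted and ER-resident protein with disulfide isomerase activity, maps to chr15:88819646-88826683 (plus strand). It had 10.03, 8.48 and 7.69 CPM in WT BAT against 13.5, 12.7 and 13.8 CPM in Letmd1 KO BAT, with a log2 fold change of 0.61 (95% interval 0.19 to 1.03, edgeR adjusted p = 0.0238). Of the 8 calls that of Creld2 was the least firm. The genotypes did not overlap, but the adjusted p rose to 0.0781 without WT replicate 2, 0.0599 without WT replicate 3, 0.064 without Letmd1 KO replicate 1 and 0.074 without Letmd1 KO replicate 3, and to 0.147 under quantile normalization with limma. Without both WT replicate 2 and Letmd1 KO replicate 3 the edgeR adjusted p of Creld2 was 0.178.

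The cofactors of BiP did not move together. Sdf2l1, which works with BiP and its J-domain partners to keep unfolded proteins from aggregating, maps to chr16:17130138-17132383 (minus strand). It was the least abundant of the 10 genes in WT BAT, with 3.13, 3.50 and 5.22 CPM (29, 33 and 40 counts). In the Letmd1 KO mice it had 25.6, 33.9 and 30.5 CPM, so that the lowest KO mouse was 4.91 times the highest WT mouse. Its log2 fold change of 2.94 (95% interval 2.43 to 3.44, edgeR adjusted p = 1.68e-05) was higher than that of all but 2.99% of the genes tested. Dnajb9 (ERdj4), a J-domain partner of BiP that is a target of spliced XBP1 and holds IRE1 inactive, maps to chr12:44205559-44210326 (minus strand). It had 32.3, 37.8 and 28.6 CPM in WT BAT against 37.5, 33.9 and 38.8 CPM in Letmd1 KO BAT. The groups overlapped, and the log2 fold change was 0.16 (95% interval -0.16 to 0.48, edgeR adjusted p = 0.396).

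Of the genes for ER-associated degradation (ERAD), which returns misfolded proteins to the cytosol for the proteasome, Edem1 rose and Herpud1 did not pass the threshold. Edem1, a lectin-like protein that picks out misfolded glycoproteins and a known target of XBP1, maps to chr6:108828641-108859356 (plus strand). It had 48.8, 44.1 and 50.7 CPM in WT BAT against 139, 118 and 158 CPM in Letmd1 KO BAT. Every KO mouse was at least 2.33 times the highest WT mouse, and the log2 fold change was 1.53 (95% interval 1.24 to 1.83, edgeR adjusted p = 2.73e-05). Herpud1, a membrane scaffold of the ERAD ligase complex (chr8:94386438-94395377, plus strand), had 146, 128 and 84.0 CPM in WT BAT against 93.8, 101 and 128 CPM in Letmd1 KO BAT. The values of both genotypes were mixed, with WT replicate 3 the lowest and WT replicate 1 the highest of the 6 mice. The log2 fold change of Herpud1 was -0.15 (95% interval -0.60 to 0.30, edgeR adjusted p = 0.572), and its direction turned to 0.27 with scaling by library size alone and to 0.066 under quantile normalization.

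Xbp1, the transcription factor whose mRNA is spliced by IRE1, maps to chr11:5520659-5525893 (plus strand). It had 43.1, 69.1 and 57.5 CPM in WT BAT against 99.9, 119 and 107 CPM in Letmd1 KO BAT. No KO mouse fell into the WT range, and the log2 fold change was 0.94 (95% interval 0.56 to 1.31, edgeR adjusted p = 0.00162). The mean log2 CPM of 15 skeletal muscle markers was -0.35, 4.30 and -0.43 in WT BAT against 4.31, 3.92 and 5.87 in Letmd1 KO BAT. WT replicate 2 thus lay within the range of the KO mice. Of these markers 3 were higher (20%, against 23.7% of all genes tested), none was lower and 12 did not pass the threshold. Their median log2 fold change was 2.21, and 14 of the 15 lay above 0. Without WT replicate 2, 13 of the 15 were higher, with a median of 6.73. The most abundant, Myl1, had the lowest log2 fold change of the list, -0.038 (edgeR adjusted p = 0.933). With the mean muscle level as a covariate, 6 of the 10 genes were still higher, and the calls of Xbp1 (log2 fold change 0.68, adjusted p = 0.05005) and Creld2 (0.63, adjusted p = 0.164) were lost. Without the covariate the change of Creld2 was 0.61, so its call was lost without a smaller change. The muscle level partly follows genotype, so this fit cannot separate muscle from genotype, and a part of muscle was not tested.

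**Figure D2:**
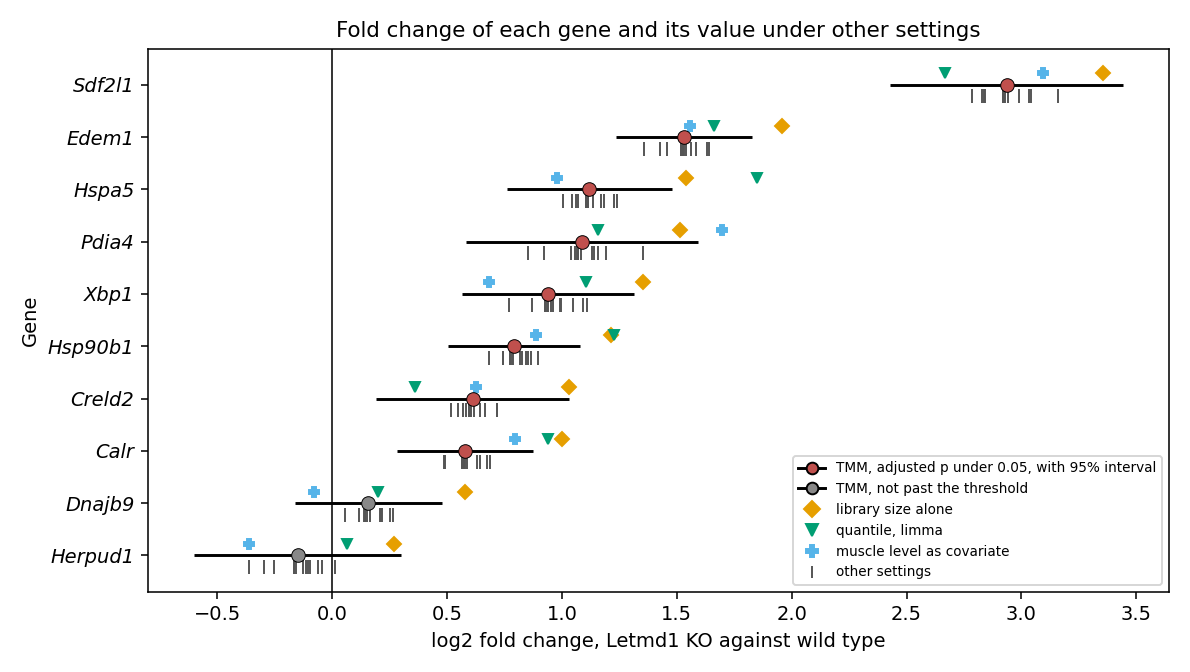
Log2 fold change of each of the 10 genes between Letmd1 KO and WT BAT (circles, red where the adjusted p was under 0.05) with the 95% interval as a line, beside the values under other scalings, tests and sets of mice. Of the 10 genes, 8 stay right of 0 with all their markers, while the markers of Dnajb9 and Herpud1 lie on both sides of 0.

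Within a genotype no mouse stood out across the 10 genes. The number of genes above the mean of the genotype was 7, 4 and 5 in WT BAT against 7, 4 and 6 in Letmd1 KO BAT. In the Letmd1 KO mice, Hspa5, Dnajb9, Creld2 and Edem1 were lowest in replicate 2, whereas Sdf2l1, Pdia4 and Xbp1 were highest there. The Pearson correlation of log2 CPM with Hspa5 over the 6 mice was between 0.70 and 0.97 for 8 of the other 9 genes, with the highest value for Creld2, and was -0.012 for Herpud1. Among genes outside every list, Phtf1os (0.999), Mlip (0.997), Sf3a3 (0.997), Abcc4 (0.996) and Acsl4 (0.996) were most like Hspa5 in this measure. Mlip had a mean of 0.107 CPM in WT BAT, under the limit that a count of 0 allows, against 3.18 CPM in Letmd1 KO BAT. Its log2 CPM in WT mice therefore rests largely on the prior count. With 3 mice per genotype such values mostly reflect the difference between the genotypes.

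The genes for the sensors were examined next. Of the 10 tested in the list of sensors and the proteases that cut them, 4 were higher and none was lower. This stands beside 23.7% of all genes that were higher and 22.3% that were lower. The median log2 fold change of the list was 0.69. The 4 include Ern1, which passed the filter on low counts only through the Letmd1 KO mice, and with DESeq2 3 were higher. Atf6 had 34.3, 50.3 and 41.9 CPM in WT BAT against 94.7, 94.4 and 122 CPM in Letmd1 KO BAT, a log2 fold change of 1.30 (standard error 0.17, edgeR adjusted p = 0.000243). Its relative Atf6b was also higher (log2 fold change 0.74, edgeR adjusted p = 0.00108). Creb3l1, a sensor of the same family linked to collagen secretion, went from 19.3 ± 2.11 to 46.1 ± 7.35 CPM (SD, n = 3 each). Mbtps1, the protease that makes the first cut in ATF6, had 119.9 ± 3.56 CPM in WT and 114 ± 6.48 CPM in Letmd1 KO BAT (SD, n = 3 each) and did not pass the threshold. For Eif2ak3 (PERK) the mice did not overlap, with 10.9, 11.9 and 13.4 CPM in WT and 14.3, 15.4 and 20.5 CPM in Letmd1 KO BAT, but the log2 fold change of 0.48 missed the threshold (edgeR adjusted p = 0.0689). It passed with library size alone (0.90, adjusted p = 0.00373), with upper-quartile scaling (0.59, adjusted p = 0.032) and among genes with a mean of at least 50 counts (0.53, adjusted p = 0.0479). Ern1 (IRE1) was near the limit of detection, with 6, 2 and 4 counts in WT BAT against 11, 9 and 28 in Letmd1 KO BAT. Its call (edgeR adjusted p = 0.0383) was lost under quantile normalization (adjusted p = 0.545), with DESeq2 (adjusted p = 0.105), with no filter (adjusted p = 0.094), with the muscle covariate (adjusted p = 0.122) and without WT replicate 2 (0.148), WT replicate 3 (0.0751), Letmd1 KO replicate 1 (0.0799), Letmd1 KO replicate 2 (0.069) or Letmd1 KO replicate 3 (0.1502). Without WT replicate 2 the log2 fold change of Ern1 was 1.19.

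Further folding factors of the ER rose in part. Of 21 other ER chaperones and prolyl isomerases, 8 were higher, 2 were lower and 11 did not pass the threshold (median log2 fold change 0.28). These shares were 38.1% and 9.52%, beside 23.7% higher and 22.3% lower of all genes tested. Manf, a secreted ER stress protein, went from 42.2, 58.9 and 46.8 CPM in WT BAT to 117, 105 and 128 CPM in Letmd1 KO BAT, and Canx (calnexin), the membrane counterpart of calreticulin, from 194 ± 17.1 to 317 ± 22.2 CPM (SD, n = 3 each). Fkbp11 rose most (log2 fold change 2.07, edgeR adjusted p = 0.00218). Cdnf, the relative of Manf, fell by 1.53 on the log2 scale (edgeR adjusted p = 0.00801), a call lost with the muscle covariate (-1.20, adjusted p = 0.154). Classical targets of the response were among the genes with no call. Hyou1 (GRP170), the exchange factor of BiP, had 51.2, 54.9 and 40.0 CPM in WT BAT against 54.0, 47.5 and 50.3 CPM in Letmd1 KO BAT, and Dnajc3 (p58IPK) had 119 ± 3.78 and 119.7 ± 6.10 CPM (SD, n = 3 each). With library size alone, which moved all genes up, Hyou1 (0.47), Dnajc3 (0.43), Mbtps1 (0.35) and the ligase gene Syvn1 (0.41) passed the threshold, beside a median of 0.45 for all genes.

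Disulfide isomerases and oxidases held the largest change of the ER lists. Of 17 genes, 8 (47.1%) were higher and 2 (11.8%) were lower (median log2 fold change 0.50), beside 23.7% and 22.3% of all genes tested. Ero1l, the oxidase that re-oxidizes disulfide isomerases and a known target of CHOP, had 19.1, 24.4 and 11.9 CPM in WT BAT against 421, 344 and 532 CPM in Letmd1 KO BAT. All KO mice lay far above the WT mice, and the log2 fold change was 4.54 (standard error 0.27, edgeR adjusted p = 5.67e-06). Its paralog Ero1lb had 2.52 ± 0.345 and 3.10 ± 0.314 CPM (SD, n = 3 each) and did not pass the threshold. P4hb (PDI) went from 64.2 ± 7.16 to 156 ± 23.2 CPM, Pdia3 from 85.2 ± 6.36 to 142 ± 24.8 CPM and Pdia6 from 182 ± 18.5 to 269 ± 18.1 CPM (SD, n = 3 each), and all 3 were higher. The membrane thioredoxin Tmx4 fell by 1.53 on the log2 scale (edgeR adjusted p = 5.99e-05).

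The ERAD machinery as a whole had a median near that of all genes. Of 27 tested ERAD genes other than Edem1 and Herpud1, 5 (18.5%) were higher, 3 (11.1%) were lower and 19 did not pass the threshold. Of all genes tested 23.7% were higher and 22.3% were lower. The median log2 fold change of the ERAD list was -0.041, which turned to 0.38 with library size alone. Erlin1, a membrane protein that binds activated calcium channels of the ER for degradation, rose most, from 6.60 ± 1.14 to 32.8 ± 8.07 CPM (SD, n = 3 each), and Sel1l, the adaptor of the ligase HRD1, rose by 0.58 on the log2 scale (0.52, adjusted p = 0.0555, with the muscle covariate). The ligase gene itself, Syvn1, had 56.4, 58.1 and 41.1 CPM in WT BAT against 49.6, 53.9 and 51.5 CPM in Letmd1 KO BAT. Rnf5, another ligase, was lower (log2 fold change -0.72, edgeR adjusted p = 0.0303). This call was lost with library size alone (-0.30), upper-quartile scaling (-0.61) and quantile normalization (-0.55). It was also lost without WT replicate 2 (-0.62), WT replicate 3 (-0.63) or Letmd1 KO replicate 1 (-0.52). The same held without both WT replicate 2 and Letmd1 KO replicate 3 (-0.74). Derl3 and Ube2j2 were below the filter on low counts.

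In the translocon and signal peptide list, 8 of 23 genes (34.8%) were higher and none was lower (median log2 fold change 0.24). Of all genes tested 23.7% were higher and 22.3% were lower. Sec61a1, the pore of the translocon, had 164, 142 and 122 CPM in WT BAT against 317, 231 and 274 CPM in Letmd1 KO BAT, and its partners Sec61b and Sec61g rose by 0.84 and 0.74 on the log2 scale. Spcs3 of the signal peptidase had the largest rise (log2 fold change 1.02) and Ssr3 the smallest among called genes (0.51), and with the muscle covariate both missed the threshold at changes of 0.83 (adjusted p = 0.0614) and 0.48 (adjusted p = 0.0554). For N-glycosylation, 8 of 15 tested genes (53.3%) were higher and 1 (6.67%) was lower (median log2 fold change 0.44). Within the oligosaccharyltransferase, Krtcap2 went from 67.5 ± 2.11 to 183 ± 7.30 CPM (SD, n = 3 each), while Dad1 fell by 0.52 on the log2 scale, a call lost with library size alone (-0.10, adjusted p = 0.431) and with the muscle covariate (-0.47, adjusted p = 0.0638). The next list held COPII coat genes, which carry cargo out of the ER, and KDEL receptors, which return resident proteins. Of its 19 genes 6 (31.6%) were higher and 1 (5.26%) was lower. Its median was -0.024, which turned to 0.39 with library size alone. Sec24d rose from 5.09 ± 2.08 to 22.9 ± 2.14 CPM and Kdelr3 from 11.04 ± 2.49 to 22.2 ± 5.34 CPM (SD, n = 3 each), while the coat GTPase gene Sar1b fell by 0.85 on the log2 scale (edgeR adjusted p = 0.000294).

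Over these 7 lists, which leave out the 10 genes, 35.6% of 132 tested genes were higher and 6.82% were lower, beside 23.7% and 22.3% of all genes. Both shares move with the scaling, as 95 genes were higher and 4 lower with library size alone, where the median log2 fold change of the 132 genes was 0.64 and that of all genes 0.45. With the muscle covariate 28 were higher and 5 lower.

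**Figure D3:**
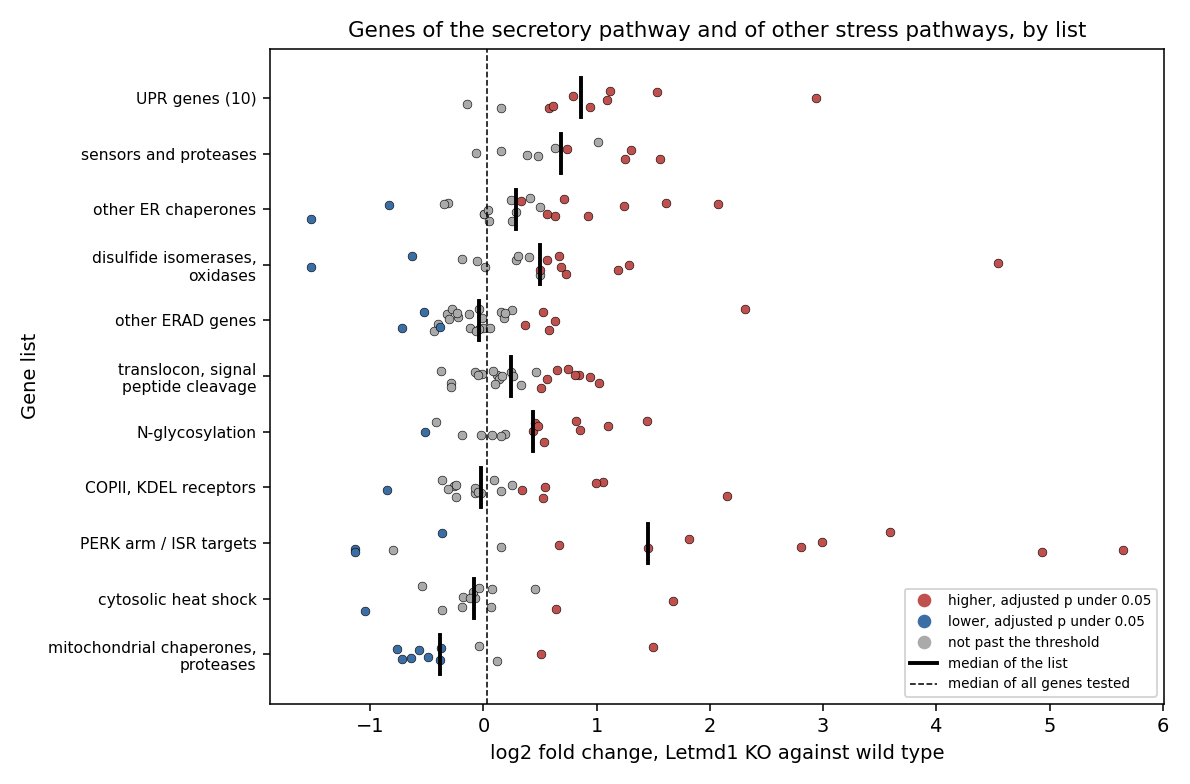
Log2 fold change between Letmd1 KO and WT BAT of every tested gene in the 10 genes of the unfolded protein response (top row), in 7 other lists of the ER and in 3 lists of other stress pathways (each point a gene; red, higher; blue, lower; grey, not past the threshold). The thick bar is the median of a list, at 0.86 for the 10 genes and 1.45 for PERK-arm targets, and the dashed line is the median of all genes tested.

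The targets of the PERK branch, which are shared with the integrated stress response, included the widest changes of any list of stress genes examined. Of 13 tested genes, 8 (61.5%) were higher, 3 (23.1%) were lower and 2 did not pass the threshold, beside 23.7% and 22.3% of all genes tested. The median log2 fold change was 1.45. Ddit3 (CHOP), the stress-induced transcription factor, had 88.0, 81.6 and 71.3 CPM in WT BAT against 524, 482 and 675 CPM in Letmd1 KO BAT (log2 fold change 2.80, standard error 0.16, edgeR adjusted p = 4.24e-06). Trib3, a pseudokinase induced by ATF4 and CHOP, went from 9.49, 5.19 and 8.21 CPM to 379, 333 and 435 CPM (log2 fold change 5.65, standard error 0.22, edgeR adjusted p = 9.01e-07). Atf4 itself rose by 1.45 on the log2 scale. The 3 lower genes were Eif4ebp1 and Cebpb, which fell by 1.14 and 1.13 on the log2 scale, and Ppp1r15b. Ppp1r15b, the constitutive partner of the eIF2alpha phosphatase, fell by 0.36 but had a change of 0.057 with library size alone. It also missed the threshold with upper-quartile scaling (-0.26, adjusted p = 0.0621), quantile normalization (-0.14, adjusted p = 0.274) and the muscle covariate (-0.38, adjusted p = 0.121). The same held without WT replicate 1 (-0.32, adjusted p = 0.054) and without both WT replicate 2 and Letmd1 KO replicate 3 (-0.39, adjusted p = 0.0996). The inducible partner Ppp1r15a rose from 17.5 ± 5.49 to 139 ± 23.7 CPM (SD, n = 3 each). None of the other eIF2alpha kinase genes, Eif2ak1, Eif2ak2 and Eif2ak4, passed the threshold of edgeR's quasi-likelihood test (log2 fold changes of -0.11, 0.43 and 0.32, with 0 of 3 at an unadjusted p under 0.05 and 0 called by DESeq2), although all 3 did with library size alone, 1 with upper-quartile scaling and 1 without Letmd1 KO replicate 2.

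**Figure D4:**
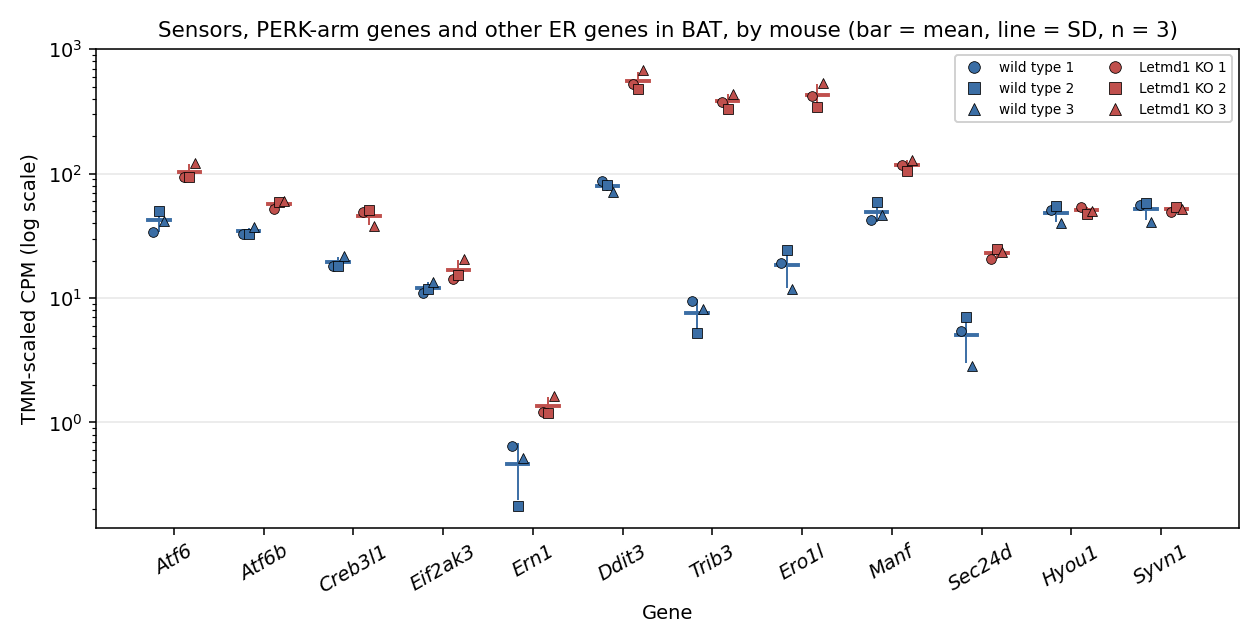
Level of sensor genes (Atf6, Atf6b, Creb3l1, Eif2ak3, Ern1), PERK-arm genes (Ddit3, Trib3) and other ER genes in each mouse as TMM-scaled CPM on a log axis, with the mean as a bar and the SD as a line (n = 3 mice per genotype). Trib3 and Ero1l lie furthest apart between the genotypes, and Hyou1 and Syvn1 overlap.

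Markers of other cells moved with genotype beside these lists. The summed level of the 13 macrophage markers was between 197 and 281 CPM in WT and between 1679 and 4141 CPM in Letmd1 KO BAT, and that of the 9 fibroblast markers between 2217 and 2928 CPM and between 6042 and 10408 CPM. Every gene of both lists had counts in each WT mouse. The most abundant of them, Lgals3 and Col1a2, had log2 fold changes of 6.05 and 1.53. Their part in the rise of the 8 genes was not tested. For B and plasma cells, whose secretory ER is rich in XBP1 targets, the 9 markers summed to between 3.02 and 4.98 CPM in WT and between 8.47 and 23.3 CPM in Letmd1 KO BAT. Of these markers 2, Jchain and Sdc1, passed the filter on low counts, and both were higher. Jchain passed it only through its counts in the Letmd1 KO mice, so the filter largely fixed its direction. Jchain had 5, 1 and 6 counts in WT BAT against 13, 36 and 25 in Letmd1 KO BAT, and Sdc1, which other cells also express, reached 14.0 CPM in Letmd1 KO replicate 2. The call of Jchain (edgeR adjusted p = 0.0254) was lost under quantile normalization (adjusted p = 0.136) and without WT replicate 1 (0.0616), WT replicate 2 (0.0819) or Letmd1 KO replicate 2 (0.0984), and that of Sdc1 with the muscle covariate (log2 fold change 2.01, adjusted p = 0.0603). Without both WT replicate 2 and Letmd1 KO replicate 3 the edgeR adjusted p of Jchain was 0.0672. The summed level of the 10 genes was 1487 CPM higher in Letmd1 KO than in WT BAT. Marker sums do not measure how much ER RNA a cell type carries, and the part of B and plasma cells in this rise was not tested. Of 9 endothelial markers, 4 (44.4%) were lower and none was higher, beside 22.3% lower and 23.7% higher of all genes tested. The most abundant, Kdr, had a log2 fold change of -0.99 (edgeR adjusted p = 0.0032), a call lost with the muscle covariate (-0.85, adjusted p = 0.0636).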

How the data were processed

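BAT of 3 WT and 3 Letmd1 KO mice was sequenced as QuantSeq 3′ mRNA libraries with single-end reads of 75 bases. The authors aligned reads with Bowtie2 (mm10 in the submitters' processing notes), took unique and multiple alignments into the counts through Bedtools, and deposited raw counts for every mouse. The quantile normalization in their methods is not in these counts. Gene annotation and use of strand are not given in the sources used here. Of 23282 rows, 5588 held no counts.

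The analysis used R 4.3.3 and edgeR 4.0.16. Genes were filtered with filterByExpr (minimum count 10, minimum total 15), libraries scaled by TMM, and genotype tested by quasi-likelihood over the 6 mice with p-values adjusted by Benjamini-Hochberg over all genes tested. The prior count for log2 CPM was 2. In a chi-square test of their counts, mice of one genotype differed beyond sampling noise (11.5 to 34.0 per degree of freedom). The labels number the samples without saying that each is a separate animal. They are called mice here, and p-values measure the spread between these samples, which may be technical. Steps were tested on simulated data in which 200 genes changed, in both directions. As 5978 genes were called here, that simulation does not show how the scaling behaves in these data. The 10 genes and all lists were chosen with earlier results of these data known. Named genes are the 10, Letmd1, Ern1, Eif2ak3, Atf6, Atf4, Ddit3, Trib3, the called genes with the most negative and most positive change of each pathway list (mean of at least 20 counts), the 5 genes outside all lists most like Hspa5, and the most abundant marker of each marker list. Others were named after their values were seen. Alternatives were library size alone, RLE and upper-quartile scaling, quantile normalization with limma 3.58.1, DESeq2 1.42.0, other filters and thresholds, a replicate block, the muscle level as a covariate, and leaving out mice. Positions came from GENCODE vM21 (GRCm38) and promoters from RefSeq (GRCm38.p6). Protein sequences were not analysed here.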

Additional observations from a re-analysis of the deposited data

How the results depend on the processing

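Of the 10 genes, 8 were higher by edgeR's test, and over all alternatives between 6 and 9 were higher and none was lower. The calls of Hspa5, Hsp90b1, Calr, Pdia4, Sdf2l1 and Edem1 held under all 16 other fits. With the muscle level as a covariate Dnajb9 turned to -0.079, and with library size alone it passed the threshold (0.58, adjusted p = 0.0104). Herpud1 turned to 0.27 with library size alone, 0.066 under quantile normalization and 0.014 without WT replicate 1, and passed no threshold there. Without each mouse in turn it lay between -0.36 and 0.014, and 7 or 8 of the 10 genes were higher.

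For the genes of the other ER lists, 47 higher and 9 lower became 95 and 4 with library size alone and 28 and 5 with the muscle covariate. Leaving out single mice gave 39 to 45 higher and 7 to 13 lower. Over all genes, 5978 passed the threshold (2896 lower, 3082 higher). This became 1368 lower and 5899 higher with library size alone (81.2% of calls higher, against 51.6%), 3569 (1763 and 1806) with the muscle covariate, 3889 (1912 and 1977) without WT replicate 2 and Letmd1 KO replicate 3, and 3939 (1985 higher) at a threshold of 0.01. Leaving out single mice gave 4842 to 5868 (2348 to 2869 lower, 2494 to 2999 higher). The fits without mice use fewer samples and the last threshold is stricter by construction. For the others the cause was not tested.

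The labels number the mice 1 to 3 in both genotypes, but no label ties equal numbers together. Deviations of equally numbered mice from their group means correlated at 0.069, -0.11 and -0.087 over genes, and 2 of the 6 mice correlated best with their own number. With the replicate number as a block, 5599 genes passed the threshold, among them 8 of the 10, all higher, and the calls of Ern1 (adjusted p = 0.0823) and Jchain (0.0616) were lost. Depth limits genes with few counts in WT mice, such as Ern1 (6, 2 and 4), Jchain (5, 1 and 6) and Fkbp11 (12, 13 and 12).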

Other observations

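Chaperones of other compartments were compared as values. Of 14 cytosolic heat shock genes, 2 (14.3%) were higher and 1 (7.14%) was lower, with a median log2 fold change of -0.082 (0.34 with library size alone). Of all genes tested 23.7% were higher and 22.3% were lower. Cryab, a small heat shock protein also found in muscle, went from 31.2 ± 3.69 to 99.4 ± 5.52 CPM (SD, n = 3 each), and Hspa4l fell by 1.05 on the log2 scale, while with the muscle covariate it missed the threshold at -0.93 (adjusted p = 0.0596). Of 11 mitochondrial chaperones and proteases, 7 (63.6%) were lower and 2 (18.2%) were higher, with a median log2 fold change of -0.38. With library size alone 2 were lower and 4 higher. Lonp1, the matrix protease, rose from 167 ± 9.81 to 471 ± 61.4 CPM (SD, n = 3 each) and Hspa9, the matrix HSP70, by 0.51 on the log2 scale (not past the threshold without WT replicate 1, WT replicate 2 or Letmd1 KO replicate 1, at 0.47, 0.46 and 0.46, nor with the muscle covariate, at 0.50), while Grpel1, the exchange factor of that HSP70, fell by 0.76. Without both WT replicate 2 and Letmd1 KO replicate 3 the change of Hspa9 was 0.39 and also missed the threshold.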
